A study of Rattus norvegicus with 9 samples.

Results

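The cytosolic ribosomal protein genes were described across gastric lymphatic vessels from unstressed rats, stressed rats and stressed rats given a herbal decoction. Members were the genes whose symbol is Rpl or Rps followed by a number, or Rplp0, Rplp1 and Rplp2, without the S6 kinases that begin with Rps6k. The pattern held 85 of the 18964 genes in the table. Of the 85, 75 code for canonical ribosomal proteins and 8 for paralogues, Rps10l1 is annotated by RefSeq as a pseudogene, and Rps19bp1 codes for a partner that binds Rps19. Rpsa, Fau and Rack1 also belong to the small ribosomal subunit, but the pattern does not reach their names, and they are given apart. The filter on low counts left 84 members to test, all except Rpl39l.

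Ribosomal proteins fold together with ribosomal RNA into the small subunit, which reads the messenger RNA, and the large subunit, which joins the amino acids. Cells need the proteins of a subunit in near equal numbers, and their messenger RNAs are among the most abundant in most tissues. Many of these messengers begin with a terminal oligopyrimidine tract, a run of C and T letters at the start site through which the mTORC1 kinase controls their translation.

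Poly(A) RNA was sequenced from 9 libraries of gastric lymphatic vessel, 3 per group, taken from male wild-type Sprague-Dawley rats of unstated age after a fast of 12 h. Control rats had no stress. Water-immersion stress was applied to model rats, which stood 4 h in a bath of 15 cm depth kept at 22 °C. Rats of the BXD group had the same immersion and then 10 ml per kg of Banxia Xiexin decoction (BXD) by gavage 30 min later, and control and model rats had a vehicle gavage, which the protocol gives as distilled water while the sample labels give none for control and saline for model. Groups had 6 rats, libraries are not tied to rats in the labels, and p-values therefore measure the spread between these libraries, which may be partly technical.

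Totals lay between 12313823 and 13455701 estimated counts. Scaling factors for composition (TMM) lay between 1.09 and 1.15 in control, 0.873 and 0.98 in model, and 0.932 and 0.985 in BXD libraries. Marker lists were set beside the tissue label, and they do not give the share of lymphatic cells. All 9 lymphatic endothelial genes on the list passed the filter, with summed levels of 981 to 1166 TMM-scaled CPM in control, 954 to 1717 in model and 1424 to 2101 in BXD, whereas of 8 listed genes of the gastric mucosa 7 were in the table and 0 passed it and their sum stayed between 0.235 and 2.2 CPM. Over the 9 libraries fibroblast genes summed to 21876 to 47287 CPM and blood endothelial genes to 1330 to 2689 CPM. Of the 9 lymphatic genes 1 rose (21.6% of all genes) and 1 fell (20.6%) in model libraries. Prox1 fell 3.56-fold (edgeR adjusted p = 0.00391) and Lyve1 rose 2.74-fold (edgeR adjusted p = 0.000484). The labels name no batch.

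Among all members, the canonical genes spanned a wide range of level per length. Mean length-corrected levels (TPM) over the 9 libraries ran from 63 for Rps19 to 7357 for Rps29, with a median of 2124. Rps29, a small zinc-binding protein of the small subunit, led, followed by Rpl41 at a mean level of 4435 TPM, Rpl37 at 4417 TPM, Rplp1 at 4338 TPM and Rpl13a at 4284 TPM. The lowest after Rps19 were Rpl15 at 324 TPM, Rpl30 at 484 TPM, Rpl39 at 489 TPM and Rpl36a at 632 TPM. These levels depend on the length by which the authors divided, which can be read back from the deposited counts and FPKM values. It was 53.7 bases for Rps29, 39.4 bases for Rpl39 and 1645 bases for Rpl15. Rps19, Rpl30 and Rpl39 also share their reads with other gene entries, described further on.

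The members together took a slightly larger share of the reads after stress, but the groups overlapped. In control libraries 2.92%, 3.6% and 3.74% of all counts fell in members, 3.42% ± 0.436 (SD, n = 3). In model libraries the share was 3.82%, 3.68% and 4.36%, 3.95% ± 0.357 (SD, n = 3), and in BXD libraries 3.67%, 3.93% and 4.02%, 3.87% ± 0.181 (SD, n = 3). Control replicate 1 had the lowest share of the 9, control replicate 3 lay within the range of the stressed libraries, and control replicate 2 lay just below it. The difference was 0.532 percentage points for model against control (exact permutation test, two-sided, p = 0.2, 0.6 after adjustment over 6 tests), -0.0771 for BXD against model (exact permutation p = 0.8, adjusted 0.9) and 0.455 for BXD against control (exact permutation p = 0.2, adjusted 0.6). With 3 libraries against 3 the smallest p that the test allows is 0.1. Without control replicate 1 the difference for model against control fell to 0.283 percentage points and that for BXD against control to 0.206.

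On a scale that corrects for length the groups overlapped as well, with means of 16.3% in control, 16.8% in model and 17.5% in BXD. Members made up 14.3%, 17.1% and 17.6% of all TPM in control, 16.2%, 15.5% and 18.7% in model, and 17.2%, 17.6% and 17.6% in BXD libraries. The order of model and BXD turned on this scale, with BXD 0.689 percentage points above model. The plot of shares by library shows both scales.

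**Figure D1:**
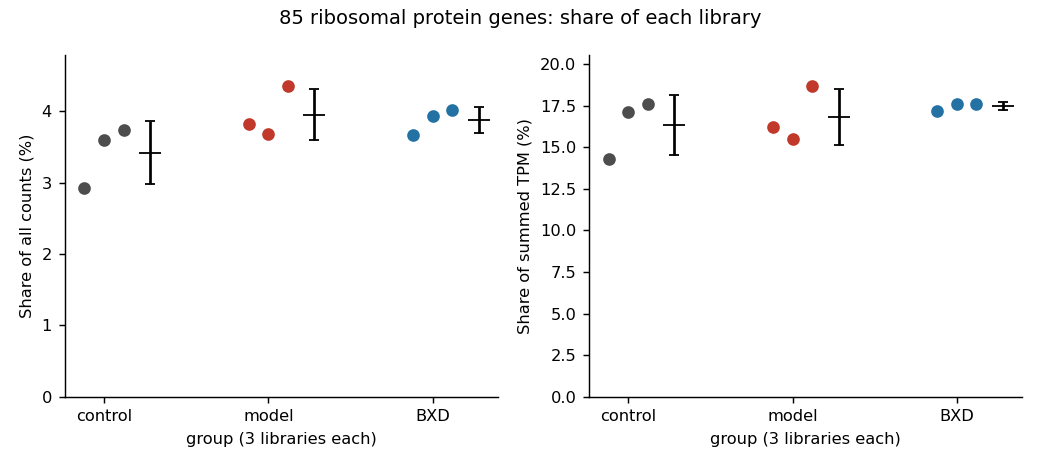
Share of each library taken by the 85 ribosomal protein genes, as percent of all estimated counts (left) and percent of summed TPM (right), with 1 point per library and the mean ± SD beside each group. Control replicate 1 lies lowest in both panels, at 2.92% of counts and 14.3% of TPM.

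The balance between the subunits did not differ beyond its spread. Summed counts of the large subunit exceeded those of the small subunit 1.6, 1.55 and 1.54 times in control, 1.56, 1.56 and 1.52 times in model and 1.61, 1.51 and 1.53 times in BXD libraries. The log2 ratio differed by -0.0192 for model against control (exact permutation p = 0.6, adjusted 0.9), by 0.007 for BXD against model (exact permutation p = 0.9, adjusted 0.9) and by -0.0122 for BXD against control (exact permutation p = 0.6, adjusted 0.9).

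Gene by gene, and relative to the bulk of the transcriptome, most members stood higher in model than in control vessels. With libraries scaled by TMM, 62 of 84 tested members rose in model libraries (edgeR quasi-likelihood test, adjusted p under 0.05), where 21.6% of all 14643 tested genes did, and 2 fell, where 20.6% of all genes did. The median log2 fold change of the members was 0.44, or 1.36-fold, and that of all genes -0.01. Called rises ran from 1.24-fold to 1.86-fold. In bulk vessels, more cells of a type and more RNA per cell cannot be told apart. The libraries of the 2 groups did not overlap, with model higher, for 71 members and for 28.9% of all genes, and with model lower for 2 members and 29.4% of all genes. DESeq2 called 1 member lower (19.9% of all genes). Without control replicate 1 the members called higher numbered 41 (16.3% of all genes).

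Against the total of the reads the rise was smaller, and the number of calls moved with the scaling. Scaled by library size alone, the median gene of the table lay at -0.28 and the median member at 0.17, with 74 of 84 members above 0, and 7 members were called higher (11.1% of all genes) and 2 lower (33.5%). With upper quartile scaling 41 members were called higher (16.2% of all genes), and with limma on FPKM 12 (11%). The gap between the median member and the median gene was 0.46 log2 units with TMM, library size alone and upper quartile scaling, and 0.43 with limma on FPKM. Among the genes given with values further on, Rplp0, Rplp2, Rps6, Rpl3, Rpl5, Rpl11, Rpl15, Rpl36a, Rpl36al, Rpl37, Rpl41, Rpl7l1, Rps10, Rps19, Rpsa, Fau, Rack1 and Gabpa lost their call for model against control by library size alone, with edgeR adjusted p from 0.0671 for Rplp2 to 0.651 for Rps6. The plot of calls by scaling shows how calls and medians moved.

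**Figure D2:**
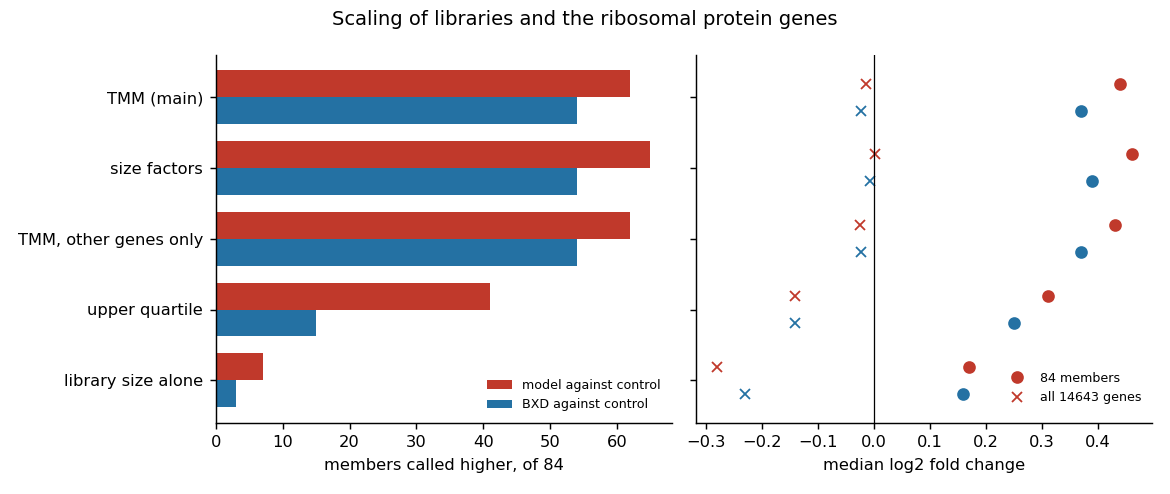
Members called higher, of 84 tested (left), and median log2 fold change of the 84 members and of all 14643 tested genes (right) under 5 ways of scaling libraries, for model and BXD against control. Calls fell from 62 to 7 for model against control between TMM and library size alone, while members and all genes shifted together, as a change of scaling moves both nearly alike.

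Short messengers as a class were also higher in model libraries. Members were mostly short by the length implied by the deposited values, with 80 of the 84 under 1000 bases. The 2061 other tested genes under 1000 bases had a median log2 fold change of 0.21 for model against control and 29.4% of them were called higher, whereas the 2760 other genes of 4000 bases and over had a median of -0.099 and 18.7% were called higher. The 80 members under 1000 bases had a median of 0.44. Among the canonical members the order went the other way. The 24 shortest, up to 209 bases, had a median of 0.38, and the 24 longest, from 422 bases, had a median of 0.52.

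Markers of other cells moved between the same groups, where 21.6% of all genes rose and 20.6% fell in model libraries. Of 14 adipocyte genes, all tested, 13 rose and 0 fell in model libraries, and their summed level was 6858 to 8233 CPM in control, 18534 to 35827 in model and 12903 to 17689 in BXD. Of 12 smooth muscle genes, all tested, 0 rose and 8 fell in model libraries, with sums of 6084 to 8961 CPM in control, 2953 to 5148 in model and 8858 to 12889 in BXD. Of 8 nerve and glia genes 1 rose and 5 fell, and of 7 fibroblast genes 0 rose and 2 fell. Of 6 neutrophil genes 4 rose and 0 fell, and of 8 macrophage genes 3 rose and 0 fell. Of 8 blood endothelial genes 1 rose and 2 fell, and of 11 lymphocyte genes 0 rose and 0 fell. The part of these cell markers in the change of the ribosomal protein genes was not tested.

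**Figure D3:**
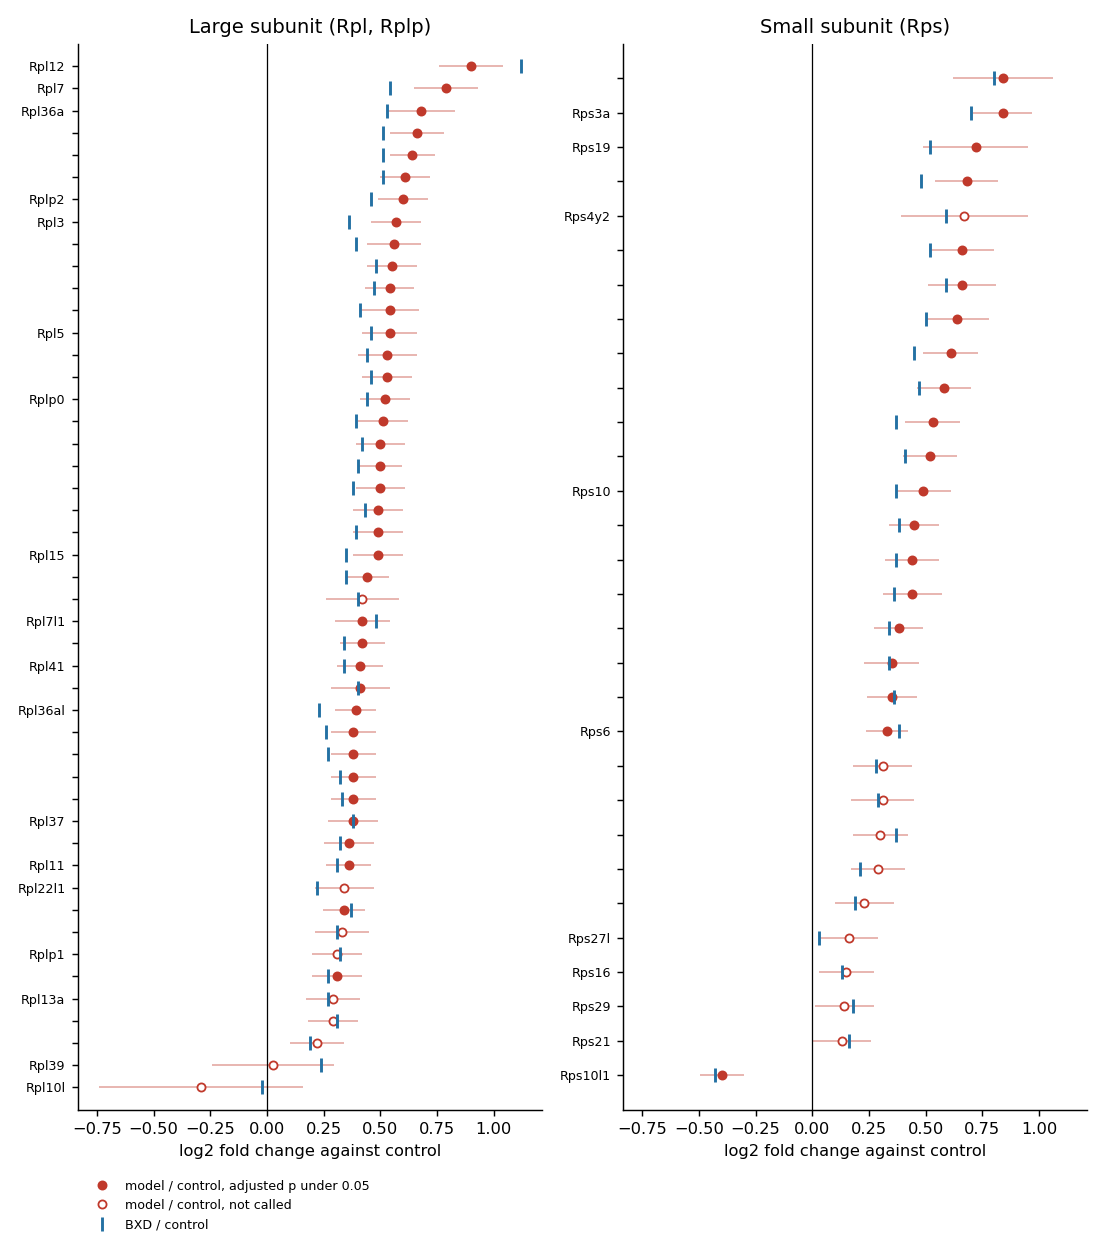
Log2 fold change of 77 tested members against control, large subunit genes on the left and small subunit genes on the right, with circles and bars for model (estimate ± SE, filled where the adjusted p was under 0.05) and ticks for BXD. Nearly all circles lie to the right of 0, from Rps10l1 at -0.40 to Rpl12 at 0.90, Rpl30 and Rpl3l lie off this scale and are left out, 5 further tested members are not shown, and labels are given for members described in the text.

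Both subunits took part. Of 45 canonical large subunit genes, 37 were called higher and 1 lower, with a median log2 fold change of 0.49. Of 30 canonical small subunit genes 22 were called higher and 0 lower, with a median of 0.44. Over all genes 21.6% were called higher and 20.6% lower. By library size alone 7 of all 84 tested members were called higher (11.1% of all genes).

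The stalk of the large subunit, the flexible arm that recruits elongation factors, showed the same shift. Rplp0, the protein that anchors the stalk, stood at 1054, 1110 and 1298 CPM in control, 1664, 1625 and 1690 in model and 1642, 1503 and 1546 in BXD libraries. Every stressed library exceeded every control library. It rose 1.44-fold in model (log2 fold change 0.52 ± 0.11 SE, edgeR adjusted p = 0.00646). Rplp2, one of the acidic proteins that the anchor carries, stood at 265, 321 and 307 CPM in control, 418, 484 and 449 in model and 383, 403 and 444 in BXD, and rose 1.51-fold in model (edgeR adjusted p = 0.00406). Rplp1, its partner, stood at 499, 607 and 639 CPM in control and 678, 746 and 737 in model, without overlap, but its 1.24-fold difference missed the threshold (edgeR adjusted p = 0.0561).

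In the 5S particle, in which Rpl5 and Rpl11 carry 5S ribosomal RNA into the large subunit and can bind Mdm2 when free, both genes were called. Rpl5 stood at 532, 594 and 694 CPM in control, 849, 836 and 965 in model and 860, 817 and 832 in BXD. It rose 1.46-fold in model (edgeR adjusted p = 0.00801). Rpl11 stood at 300, 325 and 368 CPM in control, 415, 431 and 431 in model and 422, 406 and 402 in BXD, and rose 1.29-fold in model (edgeR adjusted p = 0.0189). All stressed libraries exceeded all controls for both genes. The call of Rpl11 was lost without control replicate 1 (edgeR adjusted p = 0.0721) or 2 (0.0722), with 5.03e-04 to 0.525 over all alternatives.

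Rpl3, Rpl8 and Rpl10 around the catalytic centre rose in model libraries, as did Rpl10a, which was listed with these but lies elsewhere. All 6 listed genes around the mouth of the exit tunnel (Rpl19, Rpl22, Rpl23a, Rpl26, Rpl31 and Rpl35) rose too, where 21.6% of all genes did. By library size alone 0 of the first 4 genes and 1 of the 6 were called higher (11.1% of all genes), and their median log2 fold changes were 0.20 and 0.18. Rpl3, which reaches into the peptidyl transferase centre, rose 1.49-fold, from 761, 860 and 934 CPM in control to 1200, 1226 and 1375 in model (edgeR adjusted p = 0.00483). Of the 3 proteins that line the tunnel, Rpl4 and Rpl17 rose and Rpl39 did not pass the test, and by library size alone 0 of the 3 were called.

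On the small subunit, Rps2 and Rps3 at the messenger entry channel both rose, and of the 3 genes at the exit channel Rps14 rose while Rps26 and Rps28 did not pass. None of these was called by library size alone. Rps6, the substrate of the S6 kinases, stood at 359, 369 and 409 CPM in control, 476, 476 and 478 in model and 513, 487 and 475 in BXD. All stressed libraries lay above all controls. The rise was 1.26-fold (edgeR adjusted p = 0.0198), and the call was lost without control replicate 1 (0.0713) or 2 (0.0812), with 1.28e-04 to 0.651 over all alternatives.

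Rpl12, Rps3a, Rpl7 and Rps19 were among the 6 largest rises of members with a mean of at least 10 CPM. Rps3a, a small subunit protein near the messenger exit, stood at 808, 890 and 1000 CPM in control, 1496, 1655 and 1691 in model and 1287, 1543 and 1554 in BXD. It rose 1.79-fold in model (log2 fold change 0.84 ± 0.13 SE, edgeR adjusted p = 0.00153). Rpl7 stood at 449, 544 and 549 CPM in control and 825, 901 and 933 in model, a rise of 1.72-fold (edgeR adjusted p = 0.00256). The model and control ranges lay well apart in both genes.

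At the other end stood Rps10l1, Rpl39, Rps21, Rps29 and Rps16, besides Rpl30. Rps16, which contacts the transfer RNA in the decoding site, stood at 592, 745 and 766 CPM in control, 751, 762 and 825 in model and 744, 768 and 797 in BXD, and the groups overlapped (log2 fold change 0.15 ± 0.12 SE, edgeR adjusted p = 0.328). Rps21 stood at 129, 183 and 166 CPM in control and 167, 169 and 187 in model (0.13 ± 0.13 SE, edgeR adjusted p = 0.445). Rps29 stood at 224, 318 and 282 CPM in control and 292, 316 and 301 in model (0.14 ± 0.13 SE, edgeR adjusted p = 0.391). In each of the 3 genes control replicate 1 was the lowest of the 9 libraries. By library size alone the log2 fold changes of Rps16, Rps21 and Rps29 were below 0, at -0.12, -0.14 and -0.13.

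Of the abundant members, Rpl41 rose 1.33-fold (edgeR adjusted p = 0.0133) and Rpl37 1.3-fold (edgeR adjusted p = 0.0253), while Rpl13a stood at 956, 1093 and 1228 CPM in control and 1309, 1243 and 1450 in model and missed the threshold (edgeR adjusted p = 0.0862). The call of Rpl37 was lost without control replicate 1 (0.0806) or 3 (0.0538) or model replicate 2 (0.0609) or 3 (0.0502), with 3.66e-03 to 0.522 over all alternatives. Among the less abundant, Rpl15 rose 1.4-fold (edgeR adjusted p = 0.00979) and Rpl36a 1.6-fold (edgeR adjusted p = 0.00831).

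Fitted relative to the members themselves, with the libraries scaled by the tested members, few genes left the group. For model against control 2 members were called above the rest (5.18% of all genes) and 2 below (42.2% of all genes). Rps3a lay above by 0.40 log2 units (edgeR adjusted p = 0.0331) and Rpl12 by 0.47 (edgeR adjusted p = 0.0284), and Rpl30 and Rps10l1 lay below. The count of members above fell to 0 or 1 whenever any 1 of the 9 libraries was left out. For BXD against control Rpl12, at 0.76, and Rpl3l were above (5.32% of all genes) and Rps10l1, at -0.80, was below (32.6% of all genes). For BXD against model 0 members were called above (0.382% of all genes) or below (0.00683%) with edgeR, and 2 members had an unadjusted p under 0.05. With DESeq2 model against control had 5 above (5.43% of all genes) and 5 below (40%), BXD against model 1 above (4.22%) and BXD against control 2 below (35.5%).

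Rps10l1, a relative of Rps10 on chromosome 6 (75429715 to 75430282, Rnor_6.0), was the only member besides Rpl30 called lower in model libraries. It stood at 47.5, 41 and 46.8 CPM in control, 33.9, 32.6 and 35.8 in model and 32.2, 34.3 and 34 in BXD. All stressed libraries lay below all controls. It fell by 0.40 on the log2 scale in model (SE 0.097, edgeR adjusted p = 0.0107) and by 0.43 in BXD (edgeR adjusted p = 0.0114), the latter lost without control replicate 1 (0.0505), with 1.63e-03 to 0.0505 over all alternatives. Rps10 itself stood at 189, 235 and 249 CPM in control, 300, 305 and 340 in model and 292, 283 and 294 in BXD, and rose in model libraries (log2 fold change 0.49, edgeR adjusted p = 0.0103).

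Many members have copies in the table, genes whose description names the same protein. There were 73 such copies of 41 members, of which 41 averaged under 10 counts. The description was the only rule, and RefSeq can name another gene. It gives the symbol Ubb-ps1 to LOC100910768, taken here as the copy of Rps27a with a mean of 16.3% of the joint counts. LOC103690821, taken as a copy of Rpl39, is Rpl31-ps12 in RefSeq. For 23 members the copies held under 2% of the joint counts, and for 10 members over 10%. Reads from near-identical copies could have been divided between entries by the authors' counting, so the values of these members are uncertain.

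Rpl30, a large subunit protein, was the only member that was near 0 in some libraries and above 50 CPM in others. The gene lies on chromosome 7 (73213537 to 73216431, minus strand, Rnor_6.0). It had 2253, 2372 and 918 counts in control, 0, 2.82 and 0 in model and 1660, 0 and 0 in BXD libraries. Scaled, these were 160, 154 and 64.4 CPM, 0, 0.269 and 0 CPM, and 139, 0 and 0 CPM. A count of 0 allows up to 3 counts, or 0.226 to 0.263 CPM in the libraries that were at 0, and this limit covers counting error only. Control over model was 1511-fold by summed counts divided by the scaled library sizes, with the model sum rounded to 3 counts. The exact 95% interval of this ratio, 517 to 7328, covers counting error only. With edgeR the difference was called (edgeR adjusted p = 0.0237). The call was lost without control replicate 1 (0.0503) or 2 (0.0515) or model replicate 1 (0.0718), 2 (0.092) or 3 (0.0711), with 2.70e-04 to 0.092 over all alternatives. BXD replicate 1 lay in the range of the controls and the other BXD libraries were at 0, so that a group mean describes no library there.

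The table holds a second entry for the same protein. LOC100362027, described there as L30-like and named Rpl30l2 by RefSeq, lies on chromosome 10 (38024460 to 38024945, Rnor_6.0) with 1 transcript. It stood at 81.1, 140 and 233 CPM in control, 352, 345 and 377 in model and 240, 351 and 346 in BXD. It was high where Rpl30 was at 0 and lowest where Rpl30 was highest. It rose in model libraries (log2 fold change 1.24 ± 0.32 SE, edgeR adjusted p = 0.0143), a call lost without control replicate 2 (0.0523), with 3.85e-04 to 0.0523 over all alternatives.

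Added together, Rpl30 and the copy behaved like other members. Their sum was 241, 294 and 297 CPM in control, 352, 346 and 377 in model and 379, 351 and 346 in BXD. No library lacked it, and all stressed libraries exceeded all controls. The sum rose 1.29-fold in model (log2 fold change 0.37 ± 0.11 SE, edgeR adjusted p = 0.0236), and the direction was thus the reverse of that of Rpl30 alone. Which of the 2 entries the reads came from cannot be told apart here.

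**Figure D4:**
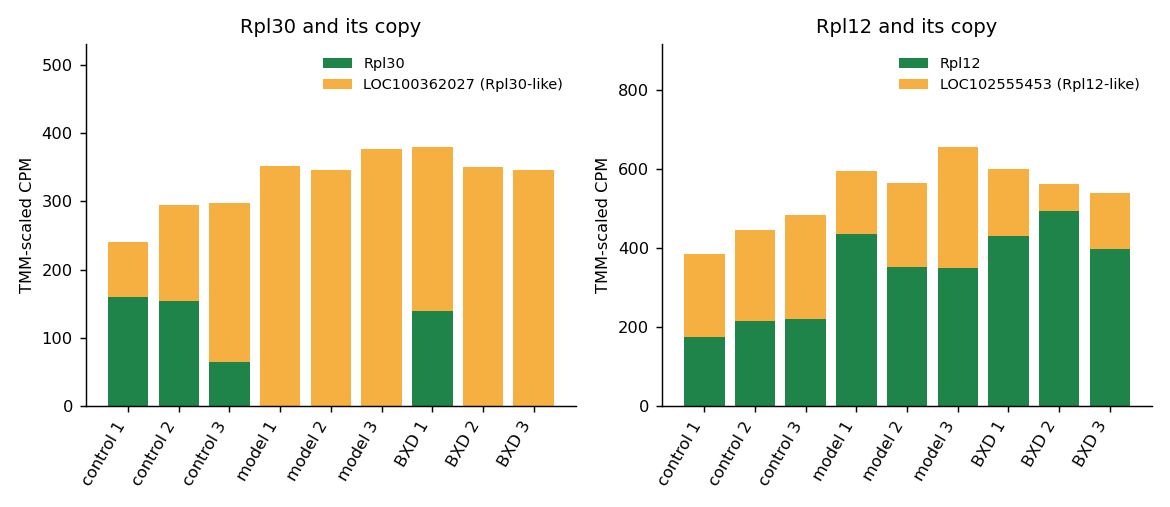
TMM-scaled CPM of Rpl30 (left) and Rpl12 (right), each stacked with the copy named for the same protein, in the 9 libraries. The Rpl30 part is 0 or under 1 CPM in 5 libraries, while the stacked total stays between 241 and 379 CPM.

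Rpl12, which binds at the base of the stalk, gave the largest rise of a member expressed above 10 CPM, and again shared counts with a copy. The gene lies on chromosome 3 (12009544 to 12011952, plus strand, Rnor_6.0). It stood at 174, 216 and 219 CPM in control, 436, 352 and 348 in model and 431, 494 and 396 in BXD, and every stressed library exceeded every control. It rose 1.86-fold in model (log2 fold change 0.90 ± 0.14 SE, edgeR adjusted p = 0.00185) and 2.17-fold in BXD (1.12 ± 0.14 SE, edgeR adjusted p = 0.00121). LOC102555453, described as L12-like, on chromosome X (1345540 to 1346244, Rnor_6.0), stood at 210, 230 and 264 CPM in control, 159, 211 and 306 in model and 168, 66.9 and 142 in BXD, without a call for BXD against control (log2 fold change -0.90 ± 0.33 SE, edgeR adjusted p = 0.0661). Rpl12 held 45.3% to 48.5% of the joint counts in control libraries, 53.2% to 73.3% in model and 72% to 88.1% in BXD.

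The joint level of Rpl12 and the copy was 384, 446 and 483 CPM in control, 595, 563 and 654 in model and 600, 561 and 538 in BXD. It rose 1.38-fold in model (log2 fold change 0.47 ± 0.12 SE, edgeR adjusted p = 0.0122) and 1.29-fold in BXD (0.37 ± 0.12 SE, edgeR adjusted p = 0.0383). Relative to the other members the joint level did not pass the test in model (log2 fold change -0.0014, edgeR adjusted p = 0.993).

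Rps19 and Rpl39 had most of their joint counts in copies. Rps19 is split between the entry of that symbol, which held 1.75% to 3.04% of the joint counts, and a second entry of the same description on chromosome 9 with 366, 437 and 455 CPM in control and 607, 561 and 620 in model. The small entry rose 1.64-fold (edgeR adjusted p = 0.0328) and the joint level 1.43-fold (edgeR adjusted p = 0.00653). The call of the small entry was lost without control replicate 1 (0.0561), 2 (0.106) or 3 (0.0958) or model replicate 1 (0.0653) or 2 (0.112), with 6.53e-03 to 0.112 over all alternatives. Rpl39, a short protein of the exit tunnel, held 5.11% to 12% of its joint counts, most of which lay in LOC103692785, and the joint level did not pass the test (1.08-fold, edgeR adjusted p = 0.494). Rps9 and LOC103689992 had the same counts in every library.

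With each member summed with its copies, 63 of 84 were called higher and 1 lower for model against control (21.6% and 20.6% of all genes). This way of counting was chosen after seeing the data. Relative to the other members, Rps3a alone was then above, at 0.38 log2 units (edgeR adjusted p = 0.0363; 4.95% of all genes were above), and Rps10l1, Rpl39, Rps16 and Rps21 were below, at -0.88, -0.34, -0.31 and -0.33 (edgeR adjusted p = 0.00077, 0.0384, 0.0488 and 0.0428; 44.3% of all genes were below). For BXD against control Rpl3l alone was above, at 4.74 (5.28% of all genes).

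The paralogues were mostly much lower than the canonical genes per length. Rpl7l1, at a mean of 77.5 TPM, and Rpl36al, at 551 TPM, rose in model libraries. Rpl7l1, a relative of Rpl7 with a part in ribosome assembly, stood at 106, 98.3 and 104 CPM in control, 127, 149 and 136 in model and 122, 161 and 148 in BXD (1.34-fold in model, edgeR adjusted p = 0.0211). That call was lost without control replicate 1 (0.0557), 2 (0.0826) or 3 (0.0642) or model replicate 2 (0.061), with 4.12e-03 to 0.368 over all alternatives. Rpl36al stood at 74.1, 83 and 77.1 CPM in control and 97.1, 108 and 102 in model (1.31-fold, edgeR adjusted p = 0.00849).

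The other paralogues did not pass for model against control. Rpl22l1, the relative of Rpl22, stood at 49.8, 71.2 and 58 CPM in control and 77.8, 70.2 and 79.4 in model (edgeR adjusted p = 0.0635). Rps27l, a relative of Rps27 known as a target of p53, stood at 35.8, 39.9 and 37.6 CPM in control and 38.5, 49.5 and 39 in model (edgeR adjusted p = 0.348). Rps4y2 stood between 5.54 and 13.9 CPM over the 9 libraries, and Rpl10l, a testis relative of Rpl10, between 0.835 and 2.31 CPM. Rpl39l, another paralogue best known from testis, was at or under 0.175 CPM, below what 3 counts give, in all libraries.

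Rpl3l, the paralogue that replaces Rpl3 in striated muscle, differed between libraries of one group. It lies on chromosome 10 (14094769 to 14105312, plus strand, Rnor_6.0). It stood at 0.71, 0.325 and 0.21 CPM in control, 0.526, 2.24 and 1.14 in model and 25.5, 0.706 and 18.3 in BXD. BXD replicates 1 and 3 were high, and BXD replicate 2 lay in the range of the controls. edgeR called it higher for BXD against control (log2 fold change 5.13 ± 1.16 SE, adjusted p = 0.0115) and did not for BXD against model (3.51 ± 1.04 SE, adjusted p = 0.133).

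Genes of striated muscle separated the libraries in the same way. The 7 listed genes (Acta1, Ckm, Myh1, Myh2, Myh4, Myh7 and Tnnt3), all tested, summed to 36.5, 29 and 34.9 CPM in control, 30.7, 391 and 19.5 in model and 6744, 57.2 and 3616 in BXD. For BXD against control 7 of the 7 were called higher, where 16.1% of all genes were. In BXD replicate 2, Myh7 stood at 0.314 CPM and Myh4 at 1.1 CPM. Their part in the difference of Rpl3l was not tested.

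**Figure D5:**
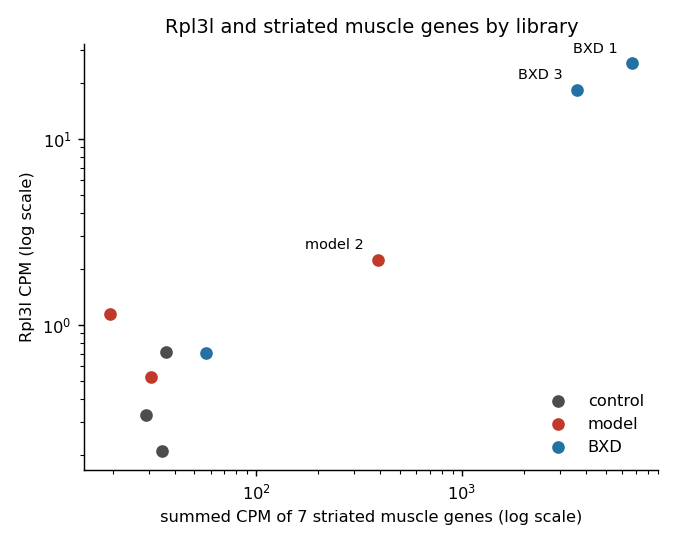
CPM of Rpl3l against the summed CPM of 7 striated muscle genes in the 9 libraries, both axes on a log scale and colours by group. BXD replicates 1 and 3 lie at 25.5 and 18.3 CPM of Rpl3l with 6744 and 3616 CPM of muscle genes, apart from the other 7 libraries.

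The decoction group did not differ from the model group in any member by the main test. For BXD against model 0 of 84 members were called higher and 0 lower with edgeR, where 0.0546% and 0.00683% of all genes were. At an unadjusted p under 0.05 there were 2 members, and 20.9% of all genes, and DESeq2 called 1 member higher (4.54% of all genes). The median log2 fold change was -0.076 over the members, 69 of which were below 0. Apart from Rpl30 and Rpl3l the estimates ran from -0.25 to 0.27. For 18 members, against 11.8% of all genes, all BXD libraries lay below all model libraries, and for 0 members all lay above (10.5% of all genes).

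The smallest p-values in that comparison were those of Rpl3l, Rpl30, Rpl7 and Rpl3. Rpl7 stood at 632, 791 and 819 CPM in BXD against 825, 901 and 933 in model (log2 fold change -0.25 ± 0.13 SE, edgeR adjusted p = 0.329). Rpl3 stood at 1048, 1096 and 1134 CPM in BXD against 1200, 1226 and 1375 in model (-0.21 ± 0.11 SE, edgeR adjusted p = 0.318). In both genes every BXD library lay below every model library.

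Against control, the decoction group showed a pattern of the same kind as the model group, and the comparisons share the control libraries. Of 84 members 54 rose (16.1% of all genes) and 1 fell (14.3%), with a median log2 fold change of 0.37, or 1.29-fold. There were 68 members whose BXD libraries all lay above all controls, against 23.8% of all genes, and 1 whose libraries all lay below (24.8%). Rplp0 rose 1.35-fold (edgeR adjusted p = 0.0179), Rplp2 1.38-fold (edgeR adjusted p = 0.0159) and Rps3a 1.63-fold (edgeR adjusted p = 0.00454). The calls of Rplp0 and Rplp2 were lost without control replicate 1 (0.0597 and 0.0619), that of Rplp0 without control replicate 2 (0.0669) and that of Rplp2 without BXD replicate 3 (0.0522), with 6.12e-05 to 0.182 for Rplp0 and 4.65e-04 to 0.16 for Rplp2 over all alternatives.

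The number of calls for BXD against control moved with the library left out and with the scaling. It was 10 (11.9% of the members) without control replicate 1, where 10.1% of all genes were called higher, and thus near the background. It was 20 without control replicate 2 (9.71% of all genes), 16 without BXD replicate 2 (11.8%) and 19 without BXD replicate 3 (13.1%). It was 36 without BXD replicate 1 (16.4%) and 42 without control replicate 3 (10.2%). Without model replicate 1, 2 or 3 it was 46 (15.4%), 55 (17.4%) or 40 (15%). The median log2 fold change of the members was 0.28 without control replicate 1 and 0.37 to 0.44 without any other library. In each of these fits 80 to 82 of the 84 members lay above 0. By library size alone 3 members were called higher (9.36% of all genes) and 1 lower (24.6%), with upper quartile scaling 15 higher (12%), and with limma on FPKM 4 higher (8.66%).

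In the authors' deposited table, which holds 1 fold change and q-value per gene and comparison, 67 of the 85 members were higher and 2 lower at a q-value under 0.05 for model against control, where 19% and 17.2% of all genes were. For BXD against model the authors' deposited table had 0 and 0 (1.92% and 0.954%), and for BXD against control 58 and 1 (14.8% and 11.6%).

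Ribosomal proteins outside the name pattern moved in the same direction. Rpsa, the laminin receptor protein of the small subunit, stood at 915, 956 and 1139 CPM in control, 1506, 1501 and 1495 in model and 1279, 1313 and 1397 in BXD, and rose 1.5-fold in model (edgeR adjusted p = 0.00437). Fau, which makes a ribosomal protein fused to a ubiquitin-like protein, and Rack1, a scaffold on the small subunit, were also called higher in model. Fau rose 1.38-fold and Rack1 1.32-fold (edgeR adjusted p = 0.00928 and 0.0165). The call of Rack1 was lost without control replicate 1 (0.0579) or 2 (0.0507), with 2.5e-04 to 0.411 over all alternatives.

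Other genes of translation were read from lists. Of 17 translation genes with a known terminal oligopyrimidine tract, 16 rose and 0 fell in model libraries, with a median log2 fold change of 0.54, and of 18 initiation factor genes 16 rose and 0 fell, with a median of 0.63, while 21.6% and 20.6% of all genes rose and fell. By library size alone 4 of the 17 and 12 of the 18 were called higher, where 11.1% of all genes were. Btf3, which guides nascent chains, rose 1.79-fold (edgeR adjusted p = 0.000622) and Hnrnpa1, an RNA-binding protein, 1.87-fold (edgeR adjusted p = 0.00105). Eif2s2, a subunit of the factor that brings the initiator transfer RNA, rose 1.78-fold (edgeR adjusted p = 0.000622) and Eif5, its partner, 2.01-fold (edgeR adjusted p = 0.000953). For BXD against model 0 genes of either list were called with edgeR.

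The mTORC1 and S6 kinase list, which holds activators and inhibitors, was mixed. Of 17 genes 7 rose (21.6% of all genes) and 0 fell (20.6%) in model libraries, and the median log2 fold change was 0.0077. The 7 were Eif4ebp1, Eif4ebp2, Larp1, Rheb, Sesn1, Sesn2 and Sesn3. Those with the smallest p were Eif4ebp2, an inhibitor of the cap-binding factor, which rose 2.23-fold (edgeR adjusted p = 0.00219), and Rheb, the activator of mTORC1, which rose 1.59-fold (edgeR adjusted p = 0.00239). Mtor itself stood at 69.4, 66.2 and 63.9 CPM in control and 61.8, 68.6 and 55.2 in model and did not pass (edgeR adjusted p = 0.469). By library size alone 3 of the 17 were called higher (11.1% of all genes) and 7 lower (33.5%).

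Of 9 tested genes of ribosome rescue and storage 4 rose and 0 fell, among them Serbp1, which binds idle ribosomes (1.47-fold, edgeR adjusted p = 0.00397), where 21.6% and 20.6% of all genes rose and fell. Of the 9, 1 was called higher and 3 lower by library size alone, near the 11.1% and 33.5% of all genes. Of 11 tested genes of ribosomal transcription 3 rose and 1 fell (20.6% of all genes), a share of rises near the 21.6% of all genes. By library size alone 2 of the 11 were called higher (11.1% of all genes) and 2 lower (33.5%). Polr1a, the largest subunit of the polymerase that makes ribosomal RNA, fell from 35.4, 33.6 and 37.5 CPM in control to 18.3, 21.7 and 18.5 in model (log2 fold change -0.87 ± 0.14 SE, edgeR adjusted p = 0.00201). Rrn3, which loads that polymerase onto its promoter, rose 1.75-fold (edgeR adjusted p = 0.00335).

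Since the members moved together, their annotated start sites were read. RefSeq promoters on GRCr8 were matched for 69 of the 85 members, 65 by gene ID and 4 by symbol, and for 60 of the 75 canonical ones. Rpl30, Rpl7, Rpl15, Rps10l1 and Rps29 were among those not matched. A start base lying in an unbroken run of at least 5 C or T letters was found on the sense strand in 38 of 60 canonical members (63.3%) and in 10.4% of 18999 promoters of protein-coding genes. The stricter form, a C at the start base followed by at least 4 letters C or T, was found in 23 (38.3%) and in 2.44%.

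Windows of 25 bases are shown for members that were called higher in model (Rps3a, Rpl12, Rplp0 and Rps6), for members that were not (Rplp1, Rps21, Rps16 and Rpl3l) and for the copies of Rpl30 and Rpl12, to compare the letters at the start. Each runs 5′ to 3′ from 10 bases before the start base, with the C and T run that holds the start base in capitals where it has at least 5 letters.
Rps3a: gtacttccgCCCTTTTggctctcag
Rpl12: aacatccgTCTTTTCggctttcggt
Rplp0: caccgcaCTTCTCTCgccaggcgtc
Rplp1: cgcatgtgaTCCTTTCCTCagctgc
Rps21: agccaCTTCCTTTCTgtgttctccg
Rps16: aaaatcggtcggggtggccccaagc
Rps6: ctcctaggcggtcggctgtgtcaag
Rpl3l: ctggtgcctggtggggaggtccctt
LOC100362027: agttgctacaCCTTTCTCgctcccc
LOC102555453: atctttattaaaaagtttttgtggg

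The windows come from the strand of the gene. They lie at chr2:173827028-173827052 (minus) for Rps3a, chr3:36661930-36661954 (plus) for Rpl12, chr12:46718376-46718400 (minus) for Rplp0 and chr8:71290858-71290882 (minus) for Rplp1. Those of Rps21 and Rps16 lie at chr3:187724028-187724052 (plus) and chr1:92770648-92770672 (plus), that of Rps6 at chr5:106420526-106420550 (minus) and that of Rpl3l at chr10:14258436-14258460 (plus). Those of the copies lie at chr10:37332846-37332870 (minus) for LOC100362027 and chrX:3750813-3750837 (minus) for LOC102555453. Of the members that rose, Rps3a, Rpl12 and Rplp0 have such a run and Rps6 has none. Of those that did not pass, Rplp1 and Rps21 have one and Rps16 and Rpl3l have none. The copy of Rpl30 starts on a run of 8 such letters, whereas the window of the copy of Rpl12 has none at its start base.

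Fold changes were set beside the stricter start only. The 23 canonical members with the stricter start had a median log2 fold change of 0.44 for model against control, with 73.9% called higher, and the other 37 had 0.50, with 81.1% called higher. Among genes outside the members, the 298 tested with that start had a median of -0.049, with 23.5% called higher, and the 11072 without it had -0.016, with 21.9%.

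Motifs were also counted over the whole promoter windows, from 250 bases before to 50 after the start and on both strands. CCGGAA, the core letters of sites for ETS factors such as Gabpa, was in 32 of 60 canonical members (53.3%) and in 18.6% of coding promoters. GGGCGG, the GC box, was in 34 (56.7%) and in 43.1%, and AAGATGGC, letters of the YY1 site, in 4 (6.67%) and in 3.92%. Each motif was searched on its own, and matches of different motifs can share letters at their ends. A match is a description of the sequence only. Of the factors, Gabpa rose 1.41-fold in model libraries (edgeR adjusted p = 0.00481), and Yy1 (edgeR adjusted p = 0.586) and Sp1 (edgeR adjusted p = 0.954) did not pass.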

How the data were processed

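Poly(A) RNA of 9 gastric lymphatic vessel libraries was sequenced. Alignment tools (HISAT2 2.2.4, Bowtie2 2.2.5) and the build, Rnor_6.0, are per the submitters' processing notes. Which tool counted is not given here. The authors deposited estimated counts (expected counts) per gene, of which 89% were whole within 1e-09, with FPKM and TPM values, per the file headers. A second deposited table gives log2 fold changes, p-values and q-values of the authors, and the authors' group means of normalised counts (signal), used only to check the sign of the fold changes. A further 45 columns of per-sample values were not used.

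Counts were rounded, filtered with filterByExpr and scaled by TMM, and a quasi-likelihood model with the group as its only term was fitted to all 14643 genes and 9 libraries (edgeR 4.0.16, R 4.3.3), with Benjamini-Hochberg adjustment and a threshold of 0.05. CPM uses the scaled library sizes. A second fit scaled libraries by TMM over the tested members. DESeq2 1.42.0 and limma 3.58.1 on log2(FPKM + 1) served as alternatives. Shares and ratios were compared with exact permutation tests (scipy 1.17.1). Fits were tested on simulated data.

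The members, lists and tests were chosen with earlier results of these data known. Named genes were members near 0 in some libraries (up to 3 counts) and at 50 CPM or more in others, fixed members (Rplp0, Rplp1, Rplp2, Rpsa, Rps6, Rpl5, Rpl11), all paralogues, the 6 highest and 6 lowest changes at a mean of at least 10 CPM, the 4 smallest p-values of BXD against model, members called lower or relative to the set, the 5 highest and 5 lowest by TPM, and leading genes of the other lists, of which fewer are named. Some genes that the rule names are not reported here. Rps10, Fau, Rack1, Mtor, Gabpa, Yy1, Sp1 and the copies of Rpl12, Rps19, Rpl39, Rps27a and Rps9 were named after their values were seen. So were Prox1, Lyve1, Eif4ebp1, Sesn2 and Sesn3. Summed copies were genes whose description names the same protein. Strand was not stated, so antisense reads cannot be told apart. Replicate numbers did not pair the libraries.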

Additional observations from a re-analysis of the deposited data

How the results depend on the processing

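Of 1132 values of named genes under alternatives, 1004 kept their direction and side of the threshold, 79 lost a call, 15 gained one and 34 turned direction. Members called higher for model against control numbered 7 by library size alone (11.1% of all genes), 41 with upper quartile scaling (16.2%) and 12 with limma on FPKM (11%). They numbered 71 with DESeq2 (18.9% of 18926 genes), 65 with scaling by size factors (22.3%) and 62 with scaling by genes outside the members (21.2%). Without a filter they were 60 (15.5%), with only the 2 groups compared 58 (22.2%), and with 1 library left out 41 to 63 (14.4% to 23.3%). Members called lower numbered 1 without a filter (15.1%), 1 with DESeq2 (19.9% of 15963 genes), 1 with summed copies (20.6%) and 1 to 2 with a library left out (14.1% to 23%). For BXD against model, DESeq2 called 1 higher (4.54%), and leaving out a library gave 0 to 1 (0% to 0.907%). For BXD against control, library size alone gave 3 higher (9.36% of all genes), upper quartile 15 (12%) and limma on FPKM 4 (8.66%). DESeq2 gave 66 (15.2% of 18926 genes), size factors 54 (16.8%) and scaling by genes outside the members 54 (16.1%). No filter gave 42 (11.6%) and only the 2 groups compared 45 (16%). A library left out gave 10 to 55 higher (9.71% to 17.4%) and 0 to 2 lower (8.68% to 15.1%). Relative to the members, model against control had 5 above (5.43%) and 5 below (40%) with DESeq2 and 1 (4.95%) and 4 (44.3%) with summed copies. It had 1 below without a filter (31.9%), and 0 to 1 above (2.95% to 6.14%) and 1 to 3 below (32.4% to 45.7%) with a library left out. BXD against model had 1 above with DESeq2 (4.22%) and 0 to 1 with a library left out (0% to 1.04%). BXD against control had 2 below with DESeq2 (35.5%) and 1 above with summed copies (5.28%). With a library left out it had 1 to 2 above (2.7% to 5.39%) and 1 to 2 below (20.7% to 32.2%).

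The direction of the share for BXD against model was 0.689 percentage points on TPM and -0.212 to 0.125 with a library left out. The log2 ratio of the subunits was 0.000178 (model against control) and 0.00621 (BXD against control) on TPM, and with a library left out -0.0199 to 0.0248 for BXD against model and -0.0391 to 0.00559 for BXD against control. Log2 fold changes for model against control turned for Rps27l (-0.12 by library size alone, -0.092 with limma on FPKM), Rpl39 (-0.22, -0.096 with upper quartile, -0.0042 with the replicate block, -0.15 with limma on FPKM), Rps21 (-0.14, -0.0015 and -0.023 in the same order without the block), Rps29 (-0.13 by library size alone) and Rps16 (-0.12, and -0.093 with limma on FPKM). Yy1 turned as well (-0.17 by library size alone, -0.026 with upper quartile, -0.15 with limma on FPKM), as did Sp1 (-0.25, -0.12 and -0.25 in that order, and -0.0033 with only the 2 groups compared). Rpl30 with its copy was 0.37 for both model and BXD against control. With a library left out, Rpl10l ran from -0.53 to 0.078, Rpl39 from -0.28 to 0.26, Rps21 from -0.011 to 0.23, Sp1 from -0.049 to 0.10, LOC102555453 from -0.34 to 0.14, and Rpl30 for BXD against model from -3.31 to 12.26. The cause of these moves was not tested. Where a library is left out, the spread is pooled over the groups.

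Libraries of the same replicate number deviated together with correlations of -0.43 to 0.10, over 0.1 for 0 of 9 pairs, so the numbers were not used as pairs. With the replicate number as a block, 60 members were called higher (18.9% of all genes) and 2 lower (17.7%) for model against control. With the block 0 were called for BXD against model (0% of all genes higher and 0.00683% lower). For BXD against control it gave 40 higher (13.2%) and 1 lower (11.8%). Low counts limit Rpl39l, Rpl10l and Rpl3l in control libraries.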
